A study of Mus musculus with 8 samples.

Results

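The mitosis and spindle genes described here are 58 genes whose products drive a cell from the end of G2 through chromosome condensation, spindle attachment, anaphase and cytokinesis. They were chosen by name, and all 58 were found among the 13681 gene symbols of the deposited expression table. Where a symbol had several transcript entries, the one with the highest mean over all libraries was used. RNA was sequenced from 8 thymic lymphomas of C57BL/6 mice lacking p53. An adenovirus was given into the tumour at an age of 10 weeks, and the tissue was taken 48 hours later. The control group (2 libraries, genotype ΔNfl/fl;p53-/-) received Ad-mCherry, a virus carrying only a fluorescent protein. The ΔNp63-labelled group (3 libraries, ΔNp63Δ/Δ;p53-/-) and the ΔNp73-labelled group (3 libraries, ΔNp73Δ/Δ;p53-/-) received Ad-CRE-mCherry, which also carries Cre recombinase. ΔNp63 and ΔNp73 are the isoforms of the p53 relatives p63 and p73 that lack the N-terminal transactivation domain. Loss of p53 is shared by all groups. Control and deletion groups differ in Cre as well as in genotype, and Cre and deletion cannot be told apart. The control label does not say which gene is floxed, and the labels do not say what share of tumour cells took up the virus or whether the libraries of a group came from separate animals. The p-values therefore measure only the spread between these libraries, which may be technical.

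Entry into mitosis is driven by the kinase CDK1 bound to cyclin A or B. Its substrates build the bipolar spindle and condense the chromosomes, the spindle checkpoint holds anaphase until every kinetochore is attached, and ubiquitin ligation by the anaphase-promoting complex then destroys cyclin B and securin. Most of these genes are transcribed in a wave that peaks in G2 and M, under the MuvB core bound to B-MYB (Mybl2) and FOXM1. The same core in the DREAM complex represses them in resting cells. Dividing thymocytes and T cell lymphomas express them strongly, and resting thymocytes, macrophages and stroma little.

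The unit is FPKM, which divides the fragments of a transcript by its length and by library size, so that levels of different genes can be compared. The authors quantile-normalised it between libraries, which hides any difference in total RNA, and the depth is unknown. One library, ΔNp63-labelled replicate 2, differed from the rest: its median correlation with the other libraries across genes was 0.847, against 0.915 to 0.956 for the other 7. It correlated more with the controls (0.915 and 0.900) than with the rest of its group (0.847 and 0.847). Trp63, whose ΔN isoforms the labels give as deleted in that group, did not settle the label. Its entries were not sorted by isoform. The entry with the highest mean read 5.21 and 3.38 FPKM in control tissue. It read 6.57, 1.05 and 9.91 under the ΔNp63 label and 13.8, 11.3 and 6.38 under the ΔNp73 label. Replicate 2 was the lowest library there and in the entries ranked 2 and 3 by mean (0.777 and 0.0394 FPKM), but not in the entry ranked 4 (0.549). In those ranked 2 and 3, ΔNp63-labelled replicates 1 and 3 read 3.72 and 5.91, and 2.60 and 3.98 FPKM. The controls read 3.44 and 7.37, and 4.53 and 3.71. Trp73 was not analysed here. Of the 16 T cell markers listed, Cd3d, Cd3e, Cd3g, Cd247, Thy1, Cd4, Cd8a, Cd8b1 and Lck were above 78 FPKM in every library. Cd2, Cd5, Dntt, Rag1, Rag2, Ptcra and Zap70 were not, with Zap70 at 17.0 to 35.5 FPKM and Ptcra at 0.401 to 13.4. In bulk tissue, fewer cells of a type and less RNA per cell cannot be told apart.

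The 58 genes were below both controls in 5 of the 6 deletion-labelled libraries, and in the sixth their median was near control while single genes ranged from 45.5% (Mki67) to 207.8% (Melk). As a median over the 58 genes, FPKM stood at 21.7% of the control mean in ΔNp63-labelled replicate 1, at 21.3% in replicate 3 and at 106.8% in replicate 2. The ΔNp73-labelled replicates 1, 2 and 3 had medians of 23.4%, 28.1% and 39.6%. The controls themselves lay at 105.2% and 94.8%. All 5 libraries other than ΔNp63-labelled replicate 2 were below both controls for 58 of 58 genes, against 27.8% of the 12921 genes tested. The summed level of the 58 genes was 2384 and 2193 FPKM in the controls, 553, 2233 and 564 in the ΔNp63-labelled libraries and 552, 671 and 915 in the ΔNp73-labelled ones.

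**Figure D1:**
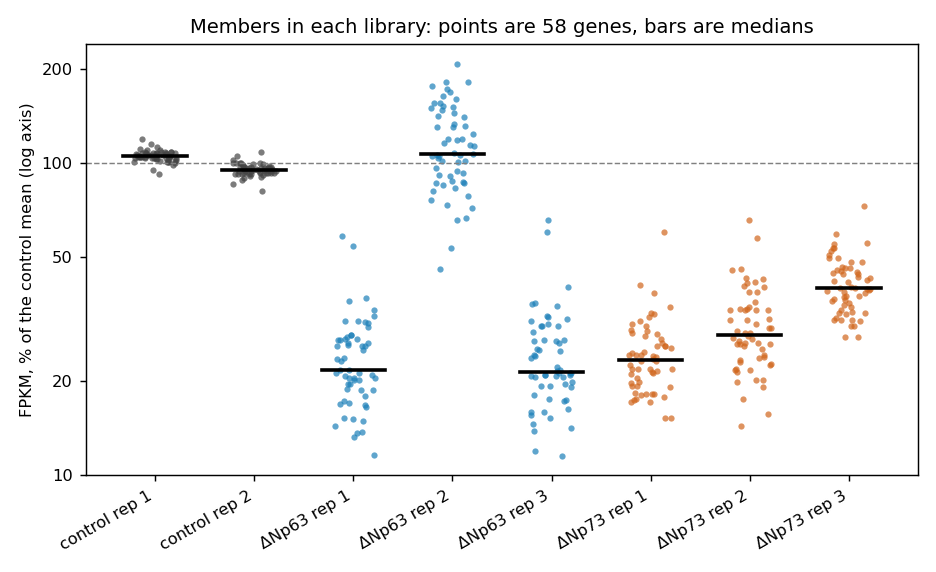
FPKM of each of the 58 genes (points) as a percentage of its control mean, on a log axis, in the 8 libraries, with the median of the 58 as a bar. The medians lie near 21% in ΔNp63-labelled replicates 1 and 3 and between 23.4% and 39.6% in the ΔNp73-labelled libraries, while ΔNp63-labelled replicate 2 has a median of 106.8% and a spread from 45.5% to 207.8%.

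Tests used limma on log2(FPKM + 1), with p-values adjusted over all genes, and a gene counts as having risen or fallen at an adjusted p under 0.05. Log2 fold changes (log2FC) are on that scale and understate the change of low genes. With all 8 libraries, 0 of the 58 genes passed in either comparison with control, where 0.0929% of all genes passed for the ΔNp63-labelled and 0.0542% for the ΔNp73-labelled group. All 58 lay below control in both (52.3% and 56.7% of all genes). The median log2FC was -1.18 in the ΔNp63-labelled group (all genes, -0.02) and -1.58 in the ΔNp73-labelled group (all genes, -0.07). At an unadjusted p under 0.05, 20 were lower in the ΔNp63-labelled group (7.03% of all genes) and 39 in the ΔNp73-labelled group (9.83%). The standard errors ran from 0.18 to 0.87. Without that library all 58 fell in both comparisons by limma. The share of all genes that fell was then 10.8% in the ΔNp63-labelled and 16.1% in the ΔNp73-labelled comparison. The adjusted p of the 58 then ran from 0.000573 to 0.0324 and from 0.00066 to 0.0184, their median log2FC was -1.94 and -1.58, and their standard errors ran from 0.12 to 0.34. For the mean of both deletions against control, 0 of the 58 passed with all libraries (0.116% of all genes) and 58 fell without replicate 2 (16.3%). These comparisons use the same 2 controls.

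**Figure D2:**
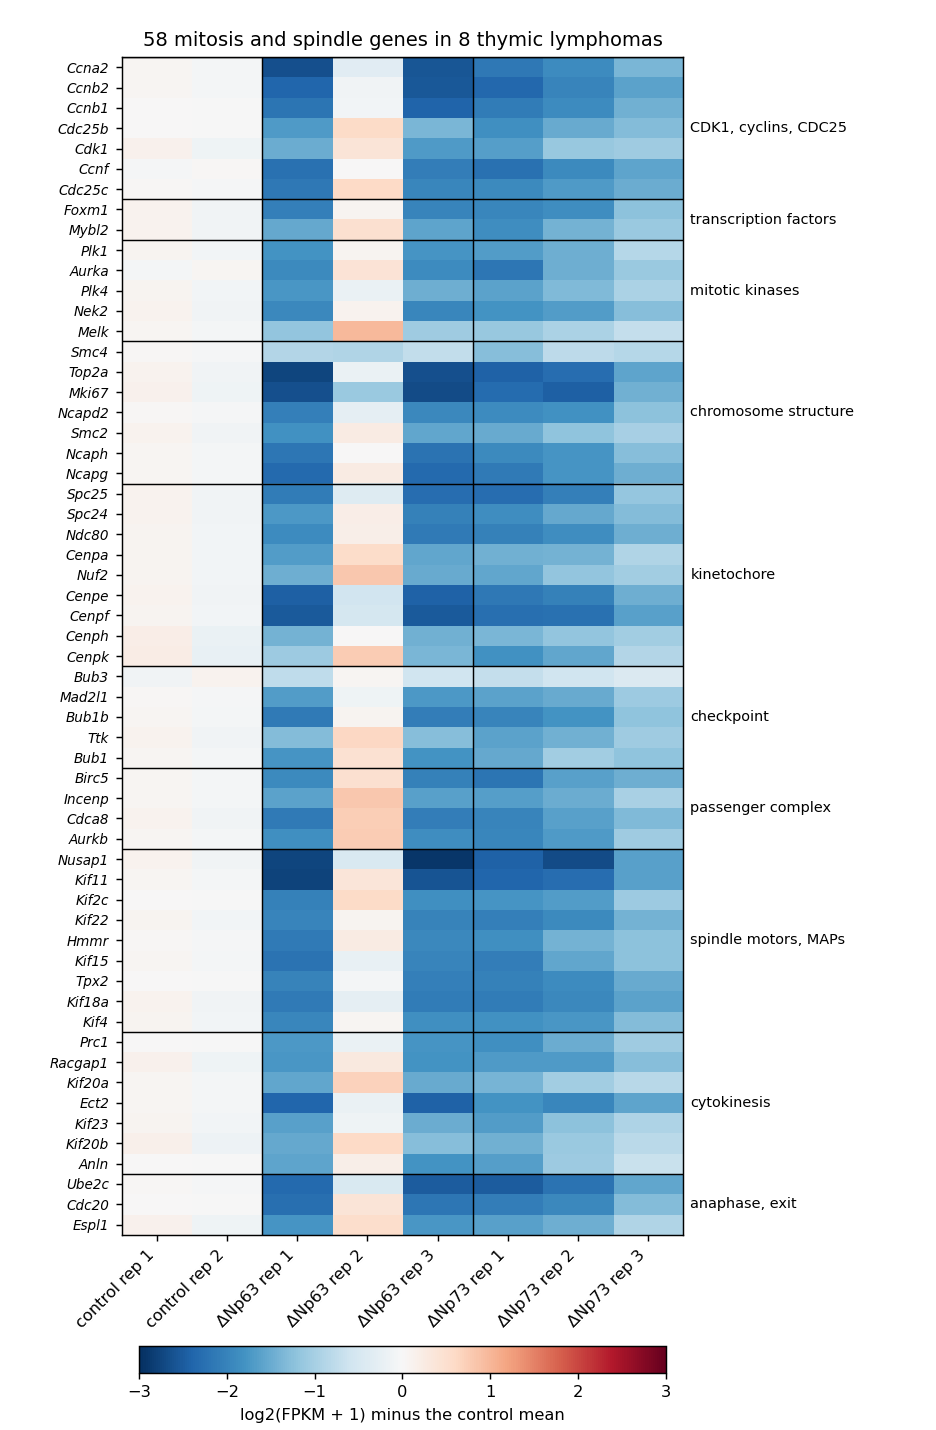
Each row is one of the 58 genes, ordered by role and then by mean level, and each column a library. Colour is log2(FPKM + 1) minus the control mean: 5 deletion-labelled columns are blue throughout, and the column of ΔNp63-labelled replicate 2 is mixed, with Melk the highest and Mki67 the lowest in percent of control.

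A shared promoter feature of these genes, which the choice by name did not use, is the cell cycle genes homology region, the element that MuvB contacts through LIN54. Its core was searched as TTTGAA or TTCGAA, and the CCAAT box, the NF-Y element that often lies upstream of it, as CCAAT, both on either strand. The windows were RefSeq promoters of build GRCm38.p6, from 250 bases before to 50 after a gene's start, and 49 of the 58 genes matched an entry. A core was found for 35 of the 49 genes (71.4%), against 21.7% of the 27025 symbols in the promoter table. Between 100 bases before and 50 after the start it was found for 33 of 49 (67.3%, against 9.9%). At least 2 CCAAT boxes were found for 23 of 49 (46.9%, against 13.3%). The sequences below show the last 120 bases before the start, 5′ to 3′ on the gene's strand, with both motifs in capitals on whichever strand they lie (TTCAAA and ATTGG are the reverse complements). The first 5 are genes of mitotic entry, chromosome structure and exit. Bub3 is the gene with the smallest difference among those with a core, and Kif18a has neither motif in the stretch shown.
Cdk1, chr10:69352913-69353032, minus strand: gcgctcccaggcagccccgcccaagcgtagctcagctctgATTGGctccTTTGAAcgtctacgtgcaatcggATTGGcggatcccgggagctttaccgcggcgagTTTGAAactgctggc
Cdc20, chr4:118437344-118437463, minus strand: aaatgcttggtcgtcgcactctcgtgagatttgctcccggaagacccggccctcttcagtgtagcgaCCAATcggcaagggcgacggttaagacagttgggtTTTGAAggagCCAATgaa
Ube2c, chr2:164769809-164769928, plus strand: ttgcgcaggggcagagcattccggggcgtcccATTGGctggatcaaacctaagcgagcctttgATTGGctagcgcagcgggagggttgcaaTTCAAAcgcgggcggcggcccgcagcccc
Top2a, chr11:99024190-99024309, minus strand: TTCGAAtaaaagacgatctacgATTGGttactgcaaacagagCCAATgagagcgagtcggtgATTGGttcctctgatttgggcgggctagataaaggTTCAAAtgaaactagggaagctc
Ccnf, chr17:24251410-24251529, minus strand: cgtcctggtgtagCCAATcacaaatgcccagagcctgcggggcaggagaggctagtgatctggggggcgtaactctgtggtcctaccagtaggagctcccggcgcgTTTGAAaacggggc
Bub3, chr7:131560250-131560369, plus strand: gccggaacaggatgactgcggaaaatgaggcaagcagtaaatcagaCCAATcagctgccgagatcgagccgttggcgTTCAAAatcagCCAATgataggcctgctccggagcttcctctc
Kif18a, chr2:109280618-109280737, plus strand: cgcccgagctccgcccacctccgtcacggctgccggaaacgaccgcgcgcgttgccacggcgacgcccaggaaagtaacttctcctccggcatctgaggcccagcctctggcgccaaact
Cdk1 has 2 TTTGAA cores and 2 CCAAT boxes in this stretch, and Top2a has 1 TTCGAA, 1 TTTGAA on the other strand and 3 CCAAT boxes. Genes with and without a core were about equally low. In the ΔNp73-labelled group the median log2FC was -1.62 over the 35 genes with a core and -1.53 over the 14 without. In the ΔNp63-labelled group without replicate 2 it was -1.99 and -1.82. A match is a description of the letters in the window and not evidence of binding.

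The genes that start mitosis had a median log2FC of -1.43 in the ΔNp63-labelled and -1.79 in the ΔNp73-labelled group. Ccna2 and Ccnb1 encode an A and a B cyclin that activate CDK1. Ccna2 was at 91.9 and 84.8 FPKM in control tissue, at 13.4, 69.1 and 14.1 under the ΔNp63 label and at 19.3, 23.3 and 33.8 under the ΔNp73 label. Ccnb1 was at 57.04 and 55.7 FPKM in control tissue, at 11.5, 53.2 and 9.79 under the ΔNp63 label and at 12.3, 14.6 and 20.3 under the ΔNp73 label. Both genes were below the controls in all 6 deletion-labelled libraries, at 78.3% and 94.4% of control in ΔNp63-labelled replicate 2, and neither passed with all libraries (adjusted p of 0.320 and 0.370 for ΔNp63, and of 0.188 and 0.181 for ΔNp73). Without that replicate Ccna2 fell by 2.599 (SE 0.23, adjusted p = 0.00176) in the ΔNp63-labelled and by 1.79 in the ΔNp73-labelled group. Cdk1 itself was at 20.2 and 16.7 FPKM in control tissue, at 5.93, 24.2 and 4.93 under the ΔNp63 label and at 5.11, 7.801 and 8.18 under the ΔNp73 label. Its log2FC was -0.94 (SE 0.58, adjusted p = 0.529) and -1.29 (SE 0.58, adjusted p = 0.253), the smallest difference of its group over both deletions, and without replicate 2 it fell by 1.59 in the ΔNp63-labelled group. Ccnb2, the second B cyclin, had the largest difference over both, at -1.68 and -1.98. The phosphatase genes Cdc25b and Cdc25c, whose products remove inhibitory phosphates from CDK1, and Ccnf, the F-box cyclin of an SCF ligase, were also below both controls in the 5 libraries, with Cdc25b and Cdc25c at 151% and 155% of control in replicate 2.

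Of the transcription factors of the G2 and M wave, Foxm1 was at 20.1 and 16.9 FPKM in control tissue, at 3.71, 19.5 and 3.92 under the ΔNp63 label and at 4.03, 4.37 and 7.35 under the ΔNp73 label. Its log2FC was -1.32 (SE 0.62, adjusted p = 0.419) and -1.68 (SE 0.62, adjusted p = 0.189). Mybl2, which encodes B-MYB, was at 8.21 and 7.02 FPKM in control tissue, at 1.99, 10.96 and 1.89 under the ΔNp63 label and at 1.38, 2.196 and 2.98 under the ΔNp73 label. The level of each factor was thus low in the libraries in which the other 56 genes were low, and within or above the control range in replicate 2. Without it Foxm1 fell by 2.01 and 1.68 and Mybl2 fell by 1.55 and 1.46 in the ΔNp63-labelled and ΔNp73-labelled groups.

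The mitotic kinases grouped here were Aurka, Plk1, Plk4, Nek2 and Melk, with Aurkb placed in the chromosomal passenger complex. Among them Plk1, which matures centrosomes and licenses many mitotic steps, had the highest mean level, below that of Aurkb (19.2 against 21.1 FPKM over all libraries). It was at 34.1 and 30.2 FPKM in control tissue, at 8.47, 34.2 and 8.69 under the ΔNp63 label and at 9.36, 11.1 and 17.2 under the ΔNp73 label. Aurka, the spindle pole kinase, was at 24.2 and 26.8 FPKM in control tissue, at 6.01, 33.98 and 6.14 under the ΔNp63 label and at 4.93, 8.62 and 11.2 under the ΔNp73 label. The log2FC was -1.16 and -1.33 for Plk1 and -1.14 and -1.58 for Aurka, none past the threshold. Nek2, which separates centrosomes, had the largest difference of this group (-1.26 and -1.59), and Plk4, which starts centriole duplication, lay at -1.14 and -1.30. Melk had the smallest difference, at -0.43 (SE 0.60, adjusted p = 0.802) and -0.93 (SE 0.60, adjusted p = 0.396). Its level was 7.51 and 6.76 FPKM in control tissue, 2.58, 14.8 and 2.85 under the ΔNp63 label and 2.73, 3.23 and 3.96 under the ΔNp73 label. Melk in replicate 2 was at 207.8% of the control mean, the highest such value of the 58 genes in any library, and without that library it fell by 1.13 and 0.93.

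Genes of chromosome structure had a median log2FC of -1.46 in the ΔNp63-labelled and -1.65 in the ΔNp73-labelled group. Mki67, the proliferation antigen that coats mitotic chromosomes, was at 104 and 88.3 FPKM in control tissue, at 14.6, 43.8 and 13.98 under the ΔNp63 label and at 18.4, 16.9 and 34.9 under the ΔNp73 label. It was below both controls in every deletion-labelled library, replicate 2 included, where it stood at 45.5% of control. Top2a, the topoisomerase that untangles sister chromatids, was at 173 and 149 FPKM in control tissue, at 23.02, 139 and 25.05 under the ΔNp63 label and at 29.2, 31.9 and 52.9 under the ΔNp73 label. Its log2FC was -1.86 (SE 0.73, adjusted p = 0.350) and -2.10 (SE 0.73, adjusted p = 0.173), and without replicate 2 it fell by 2.69 (SE 0.26, adjusted p = 0.0019) and 2.10. The condensin I genes Ncapd2, Ncapg and Ncaph were at 25.2% or less of control in ΔNp63-labelled replicates 1 and 3 and at 41.5% or less in every ΔNp73-labelled library. In ΔNp63-labelled replicate 2, Ncapd2 was at 83.1%, Ncapg at 118% and Ncaph at 101% of control. Smc4, the ATPase shared by both condensins, differed from the rest in its pattern. It was at 197 and 189 FPKM in control tissue, at 104, 103 and 116 under the ΔNp63 label and at 78.6, 111 and 106 under the ΔNp73 label. Replicate 2 was therefore at 53.4% of control, like the other libraries of its group, and Smc4 was the gene nearest to the threshold in both comparisons (log2FC -0.84 with SE 0.18 and adjusted p = 0.191 for ΔNp63, and -0.98 with adjusted p = 0.0787 for ΔNp73). Its partner Smc2 was at 119% of control in replicate 2.

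**Figure D3:**
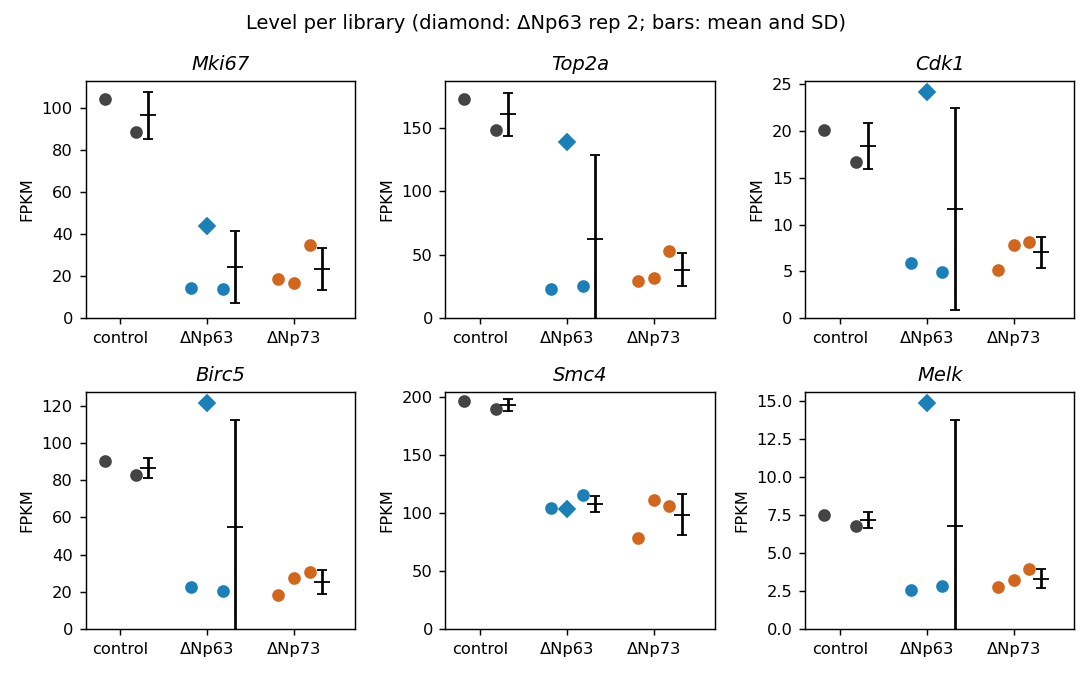
FPKM of 6 genes in each library by group, with the mean and SD beside the points; the axis starts at 0 and cuts SD bars that reach below it. ΔNp63-labelled replicate 2 (diamond) lies near or above the controls for Top2a, Cdk1, Birc5 and Melk, between the groups for Mki67 at 43.8 FPKM, and with its own group for Smc4 at 103 FPKM.

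All 9 centromere and kinetochore genes were below control. Cenpf, a large coiled-coil protein of the outer kinetochore, was at 15.1 and 13.6 FPKM in control tissue, at 1.65, 9.56 and 1.65 under the ΔNp63 label and at 2.18, 2.25 and 3.97 under the ΔNp73 label. ΔNp63-labelled replicates 1 and 3 were both near 11.52% of control for Cenpf, the lowest values of the 58 genes in any library. Its log2FC was -1.87 (SE 0.59, adjusted p = 0.286) and -2.04 (SE 0.59, adjusted p = 0.127). Spc25, a subunit of the NDC80 complex that binds microtubules, was the most abundant of the 9, at 35.96 and 31.01 FPKM in control tissue, at 7.08, 25.5 and 6.02 under the ΔNp63 label and at 6.06, 7.25 and 14.3 under the ΔNp73 label. The 4 NDC80 complex genes (Ndc80, Nuf2, Spc24 and Spc25) did not behave alike in replicate 2, where Spc25 was at 76.1% of control and Nuf2 at 181%. Cenpk, of the inner kinetochore, had the smallest difference over both deletions, at -0.56 (SE 0.62, adjusted p = 0.749) and -1.42 (SE 0.62, adjusted p = 0.244), and also the largest ratio between the 2 controls, 1.46. Without replicate 2 all 9 fell in both comparisons, by 1.23 to 2.53 in the ΔNp63-labelled and by 1.20 to 2.04 in the ΔNp73-labelled group. The share of all genes that fell was 10.8% and 16.1%.

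The spindle checkpoint genes were lower to unequal degrees. Bub1b, which encodes the checkpoint protein BUBR1, was at 34.04 and 31.1 FPKM in control tissue, at 6.66, 34.5 and 6.91 under the ΔNp63 label and at 7.54, 8.63 and 13.6 under the ΔNp73 label. Bub1, its kinase relative at the kinetochore, was at 9.199 and 8.297 FPKM in control tissue, at 1.85, 12.4 and 1.81 under the ΔNp63 label and at 2.38, 3.73 and 3.21 under the ΔNp73 label. Bub3, the adaptor that brings both to kinetochores, was nearer to control. It was at 45.1 and 52.8 FPKM in control tissue, at 28.5, 51.3 and 32.04 under the ΔNp63 label and at 29.5, 31.96 and 35.6 under the ΔNp73 label. That is 61.9% of control in ΔNp63-labelled replicates 1 and 3 and 66.1% in the ΔNp73-labelled group, the highest of the 58 genes in each, against 20.8% and 30.5% for Bub1b. Without replicate 2, Bub3 still fell, by 0.67 (SE 0.13, adjusted p = 0.0148) and 0.58 (SE 0.12, adjusted p = 0.0126). Ttk, the MPS1 kinase, and Mad2l1, the MAD2 protein that binds CDC20, lay between.

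The chromosomal passenger complex was the set in which ΔNp63-labelled replicate 2 stood highest, with all 4 genes above both controls. Aurkb, its kinase, was at 33.7 and 31.2 FPKM in control tissue, at 8.37, 55.8 and 8.21 under the ΔNp63 label and at 7.53, 9.26 and 14.9 under the ΔNp73 label. Birc5, or survivin, was at 90.2 and 82.5 FPKM in control tissue, at 22.3, 121 and 20.5 under the ΔNp63 label and at 18.2, 27.1 and 30.7 under the ΔNp73 label. Incenp, the scaffold, and Cdca8, or borealin, were at 176% and 169% of control in replicate 2. Its high values leave the log2FC of the 4 genes between -0.81 and -1.15 in the ΔNp63-labelled group (adjusted p from 0.526 to 0.660), against -1.37 to -1.76 in the ΔNp73-labelled group. Without that library all 4 fell, by 1.62 to 2.10 and by 1.37 to 1.76 (10.8% and 16.1% of all genes fell).

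Of the motors and microtubule proteins of the spindle, Nusap1, which bundles microtubules near chromosomes, was at 80.6 and 70.4 FPKM in control tissue, at 10.3, 54.2 and 9.03 under the ΔNp63 label and at 13.1, 10.8 and 23.6 under the ΔNp73 label. It had the largest fall of the 58 genes without replicate 2, by 2.84 (SE 0.31, adjusted p = 0.00224) and 2.25 (SE 0.29, adjusted p = 0.00225). Kif11, the kinesin that pushes spindle poles apart, was at 58.8 and 54.02 FPKM in control tissue, at 7.43, 73.4 and 8.59 under the ΔNp63 label and at 10.04, 10.8 and 17.6 under the ΔNp73 label. Its replicate 2 value was 9.16 times the mean of replicates 1 and 3, the highest such ratio among the 58 genes, whose median was 5.09. Kif2c, a microtubule-depolymerising kinesin, had the smallest difference of this set (-1.10 and -1.51), with replicate 2 at 150% of control. Kif4, Kif15, Kif18a, Kif22, Tpx2 and Hmmr followed. Without replicate 2 all 9 genes fell, with log2FC of -1.90 or lower in the ΔNp63-labelled and -1.50 or lower in the ΔNp73-labelled group. Of all genes, 10.8% and 16.1% fell then.

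Genes of the central spindle and cytokinesis had a median log2FC of -1.08 in the ΔNp63-labelled and -1.28 in the ΔNp73-labelled group. Prc1, which cross-links antiparallel microtubules, was at 30.1 and 30.1 FPKM in control tissue, at 8.41, 26.2 and 8.14 under the ΔNp63 label and at 7.65, 10.2 and 13.9 under the ΔNp73 label. Ect2, the exchange factor that activates RhoA for the contractile ring, was at 19.01 and 17.4 FPKM in control tissue, at 2.703, 15.7 and 2.58 under the ΔNp63 label and at 4.51, 3.98 and 5.44 under the ΔNp73 label. It had the largest difference of its set, while Kif20b, a late mitotic kinesin, had the smallest (-0.73 and -1.13). Anln, the anillin scaffold of the ring, ranged from 24.2% to 59.2% of control over the ΔNp73-labelled libraries. The partners Kif23 and Racgap1, which form centralspindlin, were at 29.4% and 26.8% of control in ΔNp63-labelled replicates 1 and 3.

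The genes that end mitosis included the most abundant of the 58. Ube2c, the ubiquitin-conjugating enzyme that serves the anaphase-promoting complex, was at 343 and 322 FPKM in control tissue, at 64.9, 242 and 57.9 under the ΔNp63 label and at 58.2, 70.7 and 112 under the ΔNp73 label. It was below both controls in all 6 libraries (log2FC -1.76 with SE 0.60 and adjusted p = 0.309 for ΔNp63, and -2.09 with adjusted p = 0.127 for ΔNp73). Cdc20, the activator of that complex, was at 69.5 and 67.7 FPKM in control tissue, at 13.4, 89.4 and 14.5 under the ΔNp63 label and at 15.4, 17.3 and 27.4 under the ΔNp73 label. Espl1, the separase that cuts cohesin, was at 7.399 and 5.96 FPKM in control tissue, at 1.25, 9.98 and 1.28 under the ΔNp63 label and at 1.45, 1.76 and 3.07 under the ΔNp73 label. Without replicate 2 the 3 genes fell by 1.76 to 2.42 and by 1.34 to 2.09 (10.8% and 16.1% of all genes fell).

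**Figure D4:**
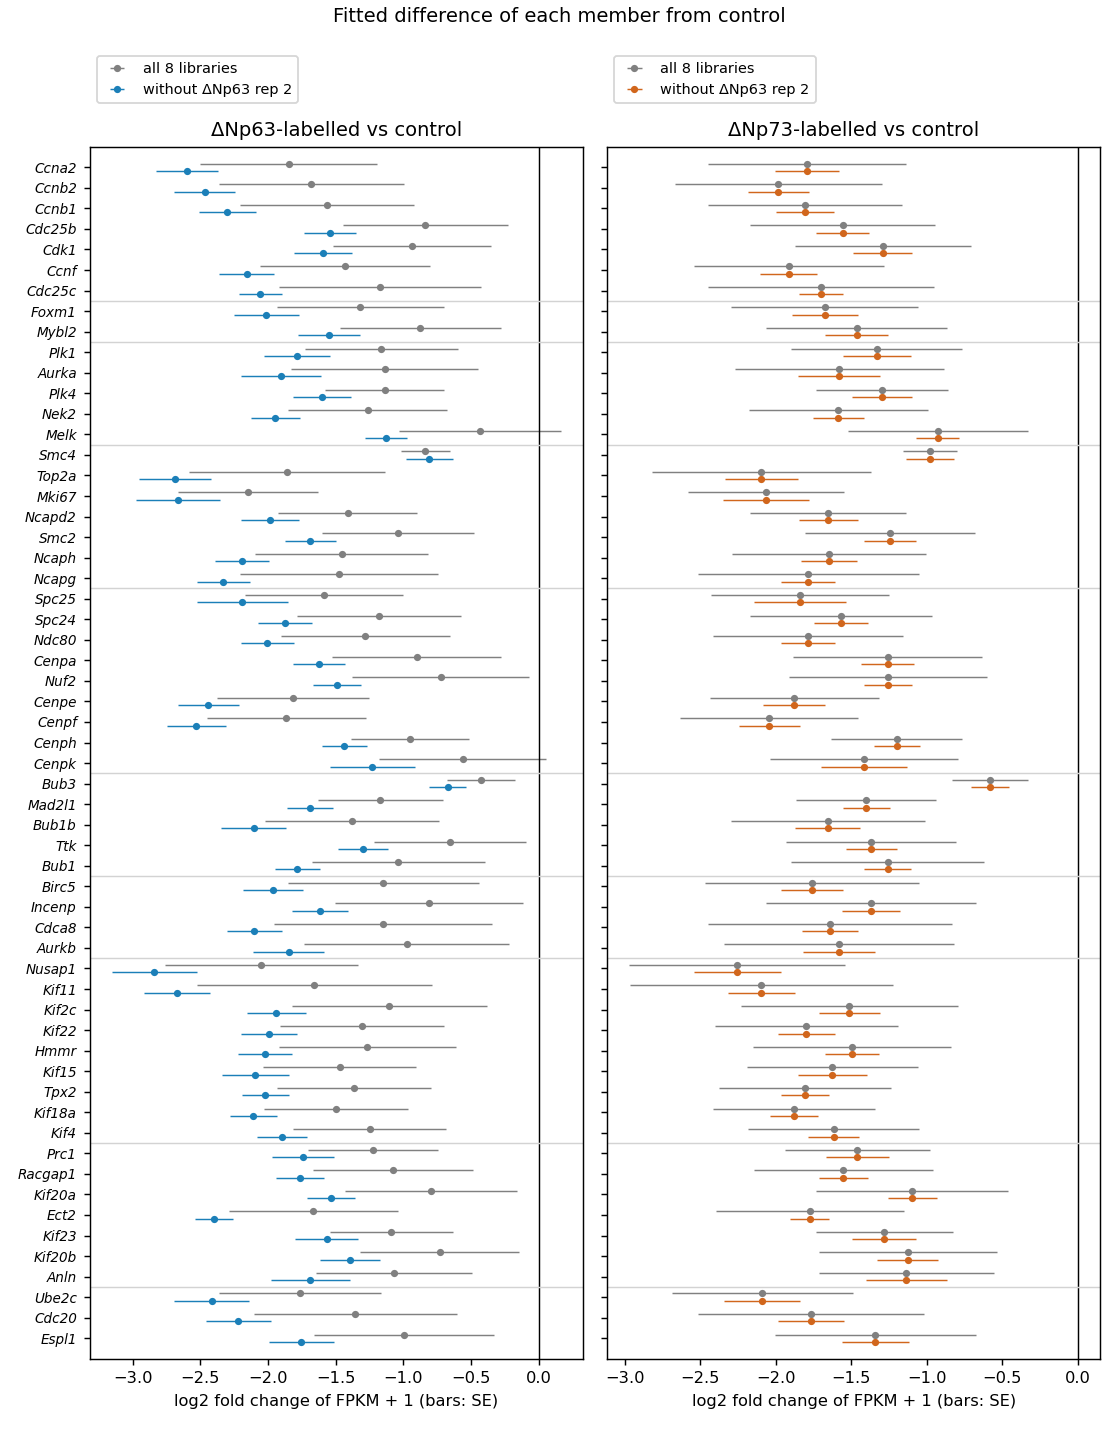
Fitted log2FC with its standard error for each of the 58 genes against control, with all 8 libraries (grey) and without ΔNp63-labelled replicate 2 (coloured). Leaving that library out shifts the ΔNp63-labelled estimates from a median of -1.18 to -1.94; it leaves the ΔNp73-labelled estimates at -1.58 and shortens their bars.

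One library of each deletion group was the highest for nearly all of the 58 genes. In the ΔNp63-labelled group replicate 2 was the highest for 57 of 58 genes, Smc4 being the exception, and 56 were at least 2 times the mean of replicates 1 and 3, against 13.9% of all genes. Replicates 1 and 3 differed by a median ratio of 1.08. Against the controls, replicate 2 was above both for 31 genes, between them for 7 and below both for 20, while 42.5% and 47.2% of all genes were above and below. The 20 genes below both were those for which no ΔNp63-labelled library overlapped the controls (17.7% of all genes), among them Mki67, Cenpe, Cenpf, Nusap1, Ube2c, Ccna2 and Top2a. In the ΔNp73-labelled group all 3 libraries were below both controls for 58 of 58 genes (35.7% of all genes). Replicate 3 was the highest of that group for 56 genes, against 40.8% of all genes, and replicate 1 the lowest for 55. How many of all genes were lowest in that replicate 1, or highest in ΔNp63-labelled replicate 2 within its group, was not counted.

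The 2 deletion groups did not differ from each other by the test for any of the 58 genes, and the direction of their difference turned with replicate 2. With all libraries the ΔNp73-labelled group had the lower fitted level for 56 of 58 genes (51.9% of all genes; median log2FC -0.32, smallest adjusted p = 0.533), and 0.0542% of all genes passed. By limma 0 of the 58 had an unadjusted p under 0.05 (4.4% of all genes were lower and 6.11% higher at that level). Without replicate 2 the ΔNp73-labelled group had the higher level for 54 of 58 (51.1% of all genes were lower; median 0.34, smallest adjusted p = 0.122), 0 passed against 0.149% of all genes, and 16 were higher at an unadjusted p under 0.05 (8.16% of all genes). All 3 ΔNp73-labelled libraries were above ΔNp63-labelled replicates 1 and 3 for 31 genes, against 15.9% of all genes.

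Of the 16 further transcript entries, which belong to 11 of the 58 genes, all were below both controls in the same 5 libraries. By their highest entry, 27.8% of the 12921 genes tested were. The share over all further entries was not counted. Only 14 of the 16 reached 1 FPKM in 2 libraries, and a further entry of Kif20a read 0.358 and 0.325 FPKM in the controls. The entries of a gene share exons, so they are not independent.

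Other mitotic genes, listed by role but with earlier results of these data known, differed more among themselves than the 58. The list was broader: it also named the kinesin genes Kif3a, Kif3b and Kif5b, which are not specific to mitosis, and subunits of the anaphase-promoting complex. Of 80 measured, 0 passed by limma with all libraries. At an unadjusted p under 0.05, 12 were lower in the ΔNp63-labelled group (7.03% of all genes) and 32 in the ΔNp73-labelled group (9.83%). Without ΔNp63-labelled replicate 2, 55 of 80 fell and 0 rose in the ΔNp63-labelled group (median log2FC -1.11). In the ΔNp73-labelled group 63 fell and 0 rose (median -0.92). Of all genes, 10.8% and 16.1% fell in these comparisons. Aspm, the spindle pole microcephaly gene, was at 11.3 and 10.2 FPKM in control tissue, at 1.298, 6.07 and 1.46 under the ΔNp63 label and at 1.62, 1.56 and 2.95 under the ΔNp73 label. Without replicate 2, Casc5, the KNL1 scaffold of the kinetochore, fell by 2.36 and 1.85, and in the ΔNp63-labelled group Ckap5, a microtubule polymerase, fell by 1.24. The subunits of the anaphase-promoting complex were grouped after their values were seen. As a median of its 12 measured subunits, FPKM was at 85.8% and 87.0% of control in ΔNp63-labelled replicates 1 and 3, at 124.6% in replicate 2 and, under the ΔNp73 label, at 74.2%, 80.2% and 83.4%. Without replicate 2, 3 of the 12 fell in the ΔNp63-labelled group (10.8% of all genes) and 5 of the 12 in the ΔNp73-labelled group (16.1% of all genes). Cdc20 and Ube2c, which serve the complex, were at 20.3% and 18.5% of control in ΔNp63-labelled replicates 1 and 3.

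DNA replication and S phase genes were also below control in the 5 libraries and not in replicate 2, as medians. As a median of 40 genes, FPKM was at 38.3% and 42.0% of control in ΔNp63-labelled replicates 1 and 3, at 144.8% in replicate 2 and, under the ΔNp73 label, at 36.0%, 43.2% and 52.4%. Rrm2, a subunit of ribonucleotide reductase, was at 208 and 217 FPKM in control tissue, at 32.7, 132 and 35.1 under the ΔNp63 label and at 36.5, 43.4 and 62.6 under the ΔNp73 label. With all libraries 0 of 40 passed by limma. At an unadjusted p under 0.05, 6 and 14 were lower (7.03% and 9.83% of all genes). Without replicate 2, 38 of 40 fell in each comparison (10.8% and 16.1% of all genes). Of 11 genes of G1 control, 0 passed by limma with all libraries. At an unadjusted p under 0.05, 3 and 5 of them were lower and 1 and 1 higher (770 and 1477 of all 12921 genes were higher). Without replicate 2, 5 fell and 1 rose in the ΔNp63-labelled and 7 fell and 2 rose in the ΔNp73-labelled group. Of all 12782 genes tested then, 1385 and 2064 fell and 1497 and 2148 rose. Ccnd1, the D cyclin of many non-lymphoid cells, was among the higher ones, at 4.48 and 3.82 FPKM in control tissue, at 8.11, 12.8 and 8.34 under the ΔNp63 label and at 8.85, 10.8 and 11.9 under the ΔNp73 label. Ccnd3, another D cyclin gene, went the other way and was at 337 and 312 FPKM in control tissue. It read 105, 87.4 and 134 under the ΔNp63 label and 81.8, 77.3 and 122 under the ΔNp73 label. Rb1, the retinoblastoma gene, was at 44.2 and 52.1 FPKM in control tissue and lower in all 6 other libraries, replicate 2 included (25.3, 25.9 and 27.98 under the ΔNp63 label, 30.04, 33.04 and 35.7 under the ΔNp73 label). Whether the mitotic genes fell more than the S phase genes was not tested.

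Markers of macrophages and fibroblasts were higher in the 5 libraries with low mitotic genes. The summed level of 14 macrophage and monocyte markers was 408 to 462 FPKM in the controls, 1103 to 1178 in ΔNp63-labelled replicates 1 and 3, 451 in replicate 2 and 1056 to 1396 in the ΔNp73-labelled group. All 14 were above control in both comparisons, as were 6162 and 5592 of all 12921 genes. By limma with all libraries 0 of the 14 passed the threshold. At an unadjusted p under 0.05, 9 and 13 were higher (770 and 1477 of all genes). Without replicate 2, 13 and 14 rose, as did 1497 and 2148 of all 12782 genes tested then. The 11 fibroblast markers summed to 92.4 to 96.8 FPKM in the controls, 203 to 234 in ΔNp63-labelled replicates 1 and 3, 103 in replicate 2 and 268 to 360 in the ΔNp73-labelled group. With all libraries Col1a2, a fibrillar collagen gene, alone of them rose, in the ΔNp73-labelled group (limma, adjusted p = 0.0475), where 6 of all 12921 genes rose. At an unadjusted p under 0.05 by limma, 5 and 9 of the 11 were higher (770 and 1477 of all genes). Without replicate 2, 5 of the 11 rose in the ΔNp63-labelled and 10 in the ΔNp73-labelled group (1497 and 2148 of all 12782 genes). The 8 endothelial markers summed to 25.7 to 34.6 FPKM in the controls, 32.6 to 40.8 in the ΔNp63-labelled and 38.9 to 64.7 in the ΔNp73-labelled group. The 6 B cell markers summed to 33.5 to 34.9 FPKM in the controls, 42.7 to 67.9 in ΔNp63-labelled replicates 1 and 3, 4.54 in replicate 2 and 40.7 to 44.2 in the ΔNp73-labelled group. No marker was listed at 0 in any library.

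T cell markers were below control as a median in all 6 deletion-labelled libraries. As a median of 16 markers, FPKM was at 64.9% and 80.3% of control in ΔNp63-labelled replicates 1 and 3, and at 42.9%, 55.1% and 67.3% under the ΔNp73 label. Replicate 2, in which the median of the mitotic genes was near control, was at 43.9%, with Rag2 at 1.99 FPKM against 20.4 to 72.3 in the other libraries and Ptcra at 0.401 against 2.43 to 13.4. Rag2 recombines antigen receptor genes and Ptcra is the pre-T cell receptor chain, both of immature thymocytes. Dntt, the terminal transferase of immature thymocytes, went the other way, at 351 FPKM in replicate 2 against 72.1 to 308 in the other libraries. Cd5 was at 95.1 FPKM there, above both controls (89.6 and 69.3), and Zap70 at 33.3 FPKM lay between them (35.5 and 31.2). All 5 were picked with their values in view. Within the ΔNp73-labelled group, replicate 3 had the highest mitotic genes, the highest T cell and the lowest macrophage median of the 3 libraries. Its endothelial and B cell medians were also the lowest. Its fibroblast median was the highest, at 384.5% of control against 324.5% and 312.8% in replicates 1 and 2. The part of cell composition in the lower mitotic levels was not tested.

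**Figure D5:**
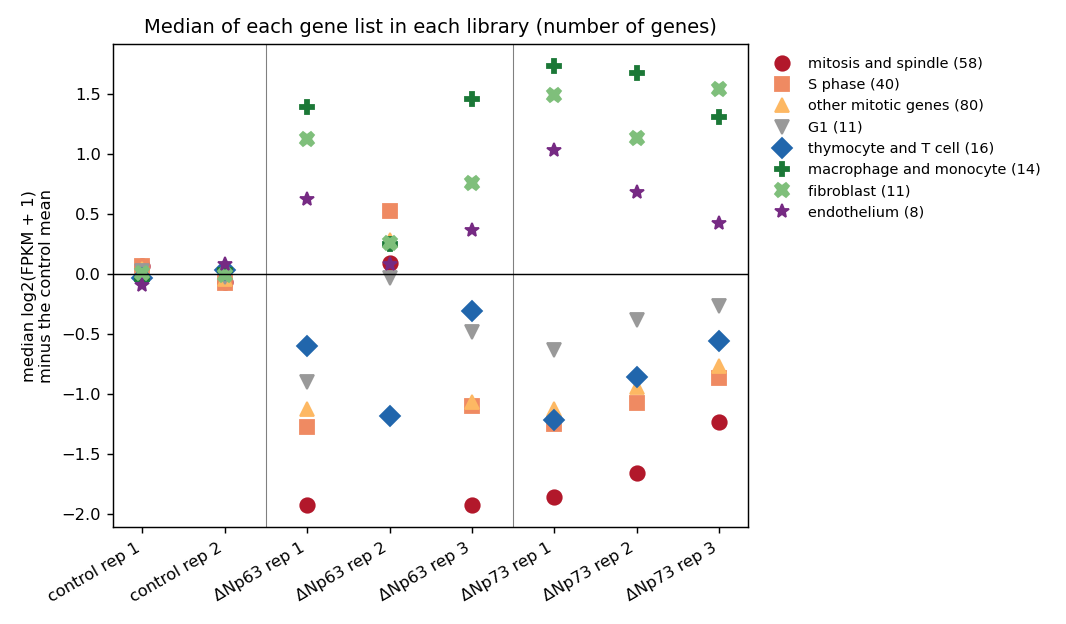
Median difference of log2(FPKM + 1) from the control mean for 8 gene lists in each library. In 5 deletion-labelled libraries the mitosis and spindle genes lie lowest, between -1.23 and -1.93, and the macrophage and fibroblast lists above 0.7; in ΔNp63-labelled replicate 2 the mitosis and spindle genes are at 0.09 and the T cell list at -1.18.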

How the data were processed

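RNA from 8 thymic lymphomas was prepared with an Illumina TruSeq kit, per the labels' protocols. The authors deposited 1 table of FPKM per RefSeq transcript entry (16589 entries), quantile-normalised between libraries, as its values show. The submitters' processing notes list TopHat2 2.0, Cufflinks 2.0 and build mm9, without saying which step each served. Quantile normalisation gives all libraries nearly the same distribution, and the depth is unknown, so no counting interval is given. Date-mangled symbols (35 entries) were restored from the RefSeq identifier.

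A single entry per symbol was kept (highest mean). Testing was limited to the 12921 genes, all 58 among them, that reached 1 FPKM in 2 libraries or more. R 4.3.3 and limma 3.58.1 fitted log2(FPKM + 1) with a moderated, two-sided test whose prior variance follows the level, with 3 groups and 5 residual degrees of freedom, and Benjamini-Hochberg adjustment over all genes. Groups follow the genotype label, and replicates are numbered in accession order. The fit was run on simulated data with independent noise, whose spread was taken without ΔNp63-labelled replicate 2. That run therefore does not cover the effect of that library. Alternatives were another pseudocount (0.1), no filter, summed entries, the compared groups alone, array weights, no trend, and each library left out. Leaving out ΔNp63-labelled replicate 2 with each other library was added after seeing the data. The 58 genes and all lists were chosen with earlier results of these data known. Genes described in full were 12 textbook genes and, per role, those with the highest level and the largest and smallest difference over both deletions, plus up to 3 per other list by p. Other genes are given as ranges or examples. Promoters came from RefSeq (GRCm38.p6), and motifs were counted without any test. Some of the named genes of other lists are not described.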

Additional observations from a re-analysis of the deposited data

How the results depend on the processing

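The median log2FC of the 58 genes against control stayed below 0 under every alternative run, as did the 30 genes among them that are described in full. Whether they passed the threshold depended on ΔNp63-labelled replicate 2. With array weights 58 fell in each comparison with control, where 2377 (ΔNp63) and 3531 (ΔNp73) of all 12921 genes fell. For the mean of both deletions 58 fell too, and 3381 of all genes. When only the libraries of the groups compared entered the model, 58 fell in the ΔNp73-labelled comparison, where 1866 of all genes fell. In that setting the count for the ΔNp63-labelled comparison stayed at 0, and 2 of all genes fell. The count stayed at 0 with a pseudocount of 0.1, no filter, summed entries or no trend. Leaving out single libraries, alone or with replicate 2, gave 0 to 58 for each comparison with control and for the mean of both deletions, and 0 for the comparison of the deletion groups. Among these, counts above 0 came only from settings without replicate 2, at 58 without it alone. With 1 ΔNp73-labelled library left out as well, the counts against control were also 58, where 1018 to 2354 of all genes fell. Leaving out another library with replicate 2 leaves 1 library in a group, and those counts are not detailed. Over all settings with libraries left out, the medians ranged from -1.998 to -0.87 (ΔNp63), -1.79 to -1.45 (ΔNp73), -1.84 to -1.20 (both deletions) and -0.68 to 0.48 (ΔNp73 against ΔNp63). With array weights the last was 0.27. Leaving out a control leaves 1 library in that group, which is assumed to vary like the other groups. No paired analysis was possible because the labels give no replicate numbers shared between groups. Since depth is unknown, it sets no limit that could be stated.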
